A study of Mus musculus with 1 sample.

Results

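The genes described here are *Myc*, *Mycn*, *Mycl*, *Max*, *Mxd1*, *Mxi1*, *Mxd3*, *Mxd4*, *Mnt* and *Mlx*, which encode the MYC, MAX and MXD network of transcription factors. They were taken by name, and all 10 were found among the 54532 genes of the table through their Ensembl identifiers in the GENCODE annotation of GRCm38. The values come from 1 RNA-seq library of bone marrow (BM) cells of control (Ctrl) mice of the C57BL/6 strain, with the wild type genotype and no treatment named. The cells were sorted for c-kit, the receptor tyrosine kinase of hematopoietic stem and progenitor cells, and the sample's labels add a gate free of lineage markers and of Sca-1. The age and the number of the mice behind the library are not given in the sources used here, and the study's methods state only in general that both sexes were used. The study set such cells beside those of *Gadd45g*-deficient mice with a myeloproliferative neoplasm, whose library was not analysed here, so the values below are levels in 1 group with no replicates and no test between groups.

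The proteins of this network carry a basic region, a helix-loop-helix and a leucine zipper, and they bind DNA as pairs. MAX is the shared partner: with MYC it binds the E-box sequence and raises transcription of genes for growth and division, and with the MXD proteins or MNT it binds the same sequence and recruits the SIN3 corepressor with histone deacetylases. MXD proteins are known to accumulate as cells stop dividing and mature, *Mxd1* in the granulocytic lineage among others. MLX is the center of a parallel branch, where it pairs with the sugar-responsive factors MondoA and ChREBP and also with some MXD proteins and MNT.

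The E-box that these proteins bind, CACGTG, reads the same on both strands and is itself present in front of several of the network's own genes. RefSeq promoter windows of GRCm38.p6, with 250 bases before and 50 bases after each annotated start, were at hand for 9 of the 10 genes, *Myc* being the other. The windows of *Max*, *Mnt*, *Mlx* and *Mxd4* held the motif, 4 of 9. Among the 27025 genes with a window, 8.09% held it in at least 1 window, and among the 8231 protein-coding genes that also reached 1 FPKM in this library, 12.2% did. The motif is shown in capitals with 20 bases on each side, on the strand of the gene, because these are the letters that the MYC, MXD and MNT pairs read.
Max, chr12:76962226-76962271, reverse strand: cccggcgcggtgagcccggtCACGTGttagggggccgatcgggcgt
Mnt, chr11:74830781-74830826, forward strand: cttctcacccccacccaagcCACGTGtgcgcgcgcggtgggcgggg
Mlx, chr11:101087230-101087275, forward strand: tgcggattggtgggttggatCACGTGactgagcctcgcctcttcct
Mxd4, chr5:34187904-34187949, reverse strand: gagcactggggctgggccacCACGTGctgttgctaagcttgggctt
The motif of *Max* covers the RefSeq start itself, from base -3 to base 3. Those of *Mlx*, *Mnt* and *Mxd4* begin 40, 123 and 219 bases before it. In the GENCODE annotation all 4 motifs lie outside the gene, upstream of its first exon. The windows of *Mxd1*, *Mxd3*, *Mxi1*, *Mycn* and *Mycl* did not hold these letters. A match of letters is a description and not a measured binding site.

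The levels are in FPKM, a unit scaled for both the length of a gene and the depth of the library, and a gene was called detected at 1 FPKM. Of the 10 network genes, 9 were detected, where 22.2% of all genes and 46.8% of the protein-coding genes were. Their median was 19.5 FPKM, beside 8.66 FPKM for the 10290 detected protein-coding genes, and 8 of the 10 were above the latter value. *Mxd1* was the highest, *Max* followed, and the MYC genes other than *Myc* itself were the lowest. The FPKM values times the gene lengths were whole multiples of 1 step for 9 of the 10 genes, and these multiples were read as fragments to give 95% Wilson intervals. Over all genes with a whole multiple, the fragments summed to 15899824. The step itself corresponds to a library total of 15783891, a little below that sum, and the reason is not known. The intervals cover counting error only, fragments copied from 1 molecule by PCR are not independent, and the spread between mice is unknown.

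**Figure D1:**
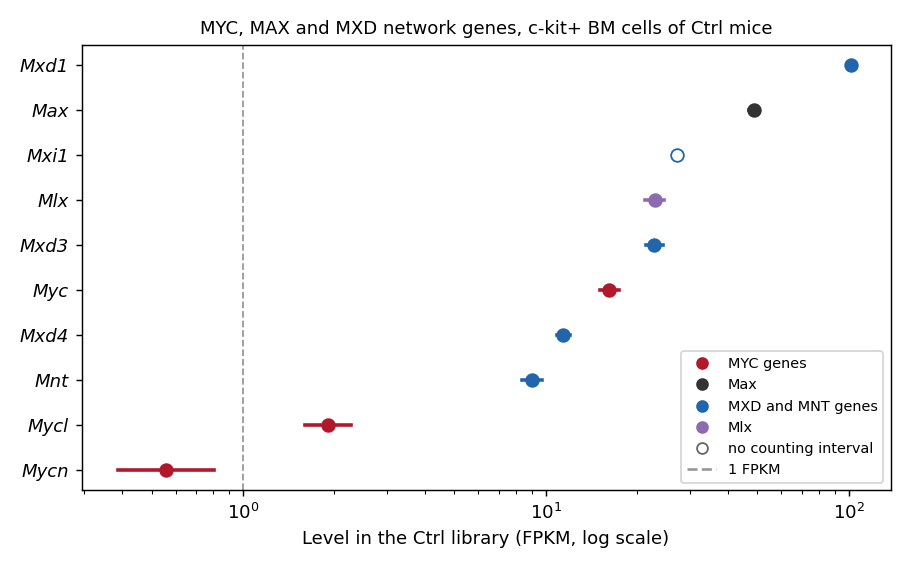
Level of each of the 10 genes in the Ctrl library in FPKM, on a log axis, with bars for the 95% Wilson interval of counting error (hidden by the point where it is narrow). *Mxd1*, at 102 FPKM, stands to the right of the others, and *Mycn*, at 0.558 FPKM, is the only point left of the dashed line at 1 FPKM.

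Of the MYC genes, *Myc* had by far the highest level in this library. *Myc* (ENSMUSG00000022346), which encodes c-MYC, had 16.2 FPKM from 696 fragments (interval, 15.1 to 17.5) and is read forward at chr15:61985391-61990374. Its level was reached or passed by 3587 genes, or 29.6% of the detected genes. *Myb*, the gene of another transcription factor of dividing progenitors, had nearly the same deposited level, at 16.5 FPKM from 2322 fragments (interval, 15.8 to 17.2). This likeness rests on the gene length used, which is all exon bases, 8933 nucleotides for *Myb* and 2717 for *Myc*. The longest transcripts have 3693 and 2338 nucleotides, and divided by these *Myb* would be well above *Myc*. *Mycl* (ENSMUSG00000028654), the gene of L-MYC at chr4:122995652-123002485, had 1.91 FPKM from 122 fragments (interval, 1.60 to 2.29). *Mycn* (ENSMUSG00000037169), the gene of N-MYC, which is known for its part in embryonic tissues and in hematopoietic stem cells, had 0.558 FPKM from 29 fragments (interval, 0.388 to 0.801). It is read in reverse at chr12:12936093-12941914. The level of *Myc* was 8.48 times that of *Mycl* (exact 95% binomial interval of the ratio, 6.99 to 10.4) and 29.1 times that of *Mycn* (interval, 20.1 to 43.8). Of the 847 fragments on the 3 genes, 696 were thus those of *Myc*.

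*Max* (ENSMUSG00000059436), the gene of the shared partner, read in reverse at chr12:76937269-76962201, had 48.8 FPKM from 2772 fragments (interval, 47.0 to 50.7). No more than 9.81% of the detected genes were at or above it. *Myc* had 0.332 of the level of *Max* (interval of the ratio, 0.306 to 0.361). The 8 of the 10 genes whose products pair with MAX, which are the 3 MYC genes, the 4 MXD genes with *Mxi1* among them, and *Mnt*, summed to 191 FPKM, and *Max* had 0.255 of that sum. Without *Mxd1* the sum of the other 7 gave a ratio of 0.548. *Mga*, another partner gene that is not among the 10, is not in these sums. These are ratios of mRNA levels, and protein amounts and dimers were not measured.

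Among the genes of the repressors, *Mxd1* stood above all other members. *Mxd1* (ENSMUSG00000001156), the gene of MXD1, also known as MAD1, read in reverse at chr6:86647042-86669161, had 102 FPKM from 11397 fragments (interval, 100.2 to 104). With 509 genes at or above it, it was among the upper 4.20% of the detected genes. It made up 38.8% of the summed FPKM of the 10 genes. Its level was 6.29 times that of *Myc* (interval of the ratio, 5.83 to 6.80) and 2.09 times that of *Max* (interval, 2.01 to 2.18).

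*Mxi1* (ENSMUSG00000025025), the gene of MXD2, read forward at chr19:53310518-53375810, was next among the repressors at 27.1 FPKM. Its value was not a whole multiple of the step, as for many genes of chromosome 19, where 48.9% of the genes above 0 had a whole multiple. It was therefore given no interval. *Mxd3* (ENSMUSG00000021485), which unlike the other MXD genes is known to be expressed in cells in S phase, had 22.9 FPKM from 855 fragments (interval, 21.4 to 24.5). It is read in reverse at chr13:55325168-55329823. *Mxd4* (ENSMUSG00000037235), read in reverse at chr5:34173883-34187720, had 11.4 FPKM from 1532 fragments (interval, 10.9 to 12.0). *Mnt* (ENSMUSG00000000282), whose product is present in both dividing and resting cells, had 9.02 FPKM from 659 fragments (interval, 8.36 to 9.74) and was the lowest of the 5. It is read forward at chr11:74830920-74845725. All 5 repressor genes were thus detected, over a range from 9.02 to 102 FPKM. Their levels summed to 173 FPKM, against 18.7 FPKM for the MYC genes, a ratio of 9.23. With *Mxd1* left out the ratio was 3.77.

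*Mlx* (ENSMUSG00000017801), the gene at the center of the parallel branch, read forward at chr11:101087277-101092207, had 22.9 FPKM from 723 fragments (interval, 21.3 to 24.6). This was lower than *Max*, which had 2.13 times its level (interval of the ratio, 1.96 to 2.32). Of the partners of MLX, *Mlxip*, the gene of MondoA, had 9.56 FPKM (interval, 9.04 to 10.1). *Mlxipl*, the gene of ChREBP, a factor best known from liver and fat, had 0.0801 FPKM from 7 fragments (interval, 0.0388 to 0.165). Of these partner genes *Mlxip* was detected and *Mlxipl* was not. *Mga*, the partner gene left out of the sums above, had 3.38 FPKM (interval, 3.16 to 3.62).

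**Figure D2:**
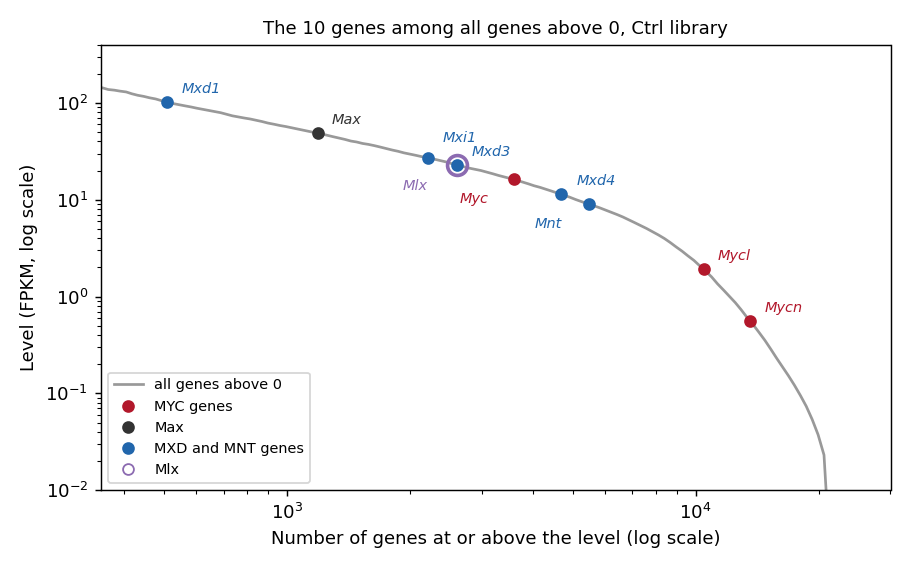
Level in FPKM against the number of genes at or above that level, both on log axes, for all genes above 0 in the Ctrl library (grey line) and for the 10 network genes (points). *Mxd1* has 509 genes at or above it, *Max* 1188, *Myc* 3587 and *Mycn* 13620, while *Mlx* (ring) and *Mxd3* nearly coincide.

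In descending order the levels ran *Mxd1*, *Max*, *Mxi1*, *Mlx*, *Mxd3*, *Myc*, *Mxd4*, *Mnt*, *Mycl* and *Mycn*. Of the 7 neighboring pairs in this order that do not involve *Mxi1*, *Mlx* and *Mxd3* did not differ beyond counting error, with an exact 95% binomial interval of their ratio from 0.906 to 1.11. The other 6 ratios had intervals above 1, the smallest being 1.27 for *Mxd4* over *Mnt* (interval, 1.16 to 1.39). The order in the middle also rests on the gene length by which the fragments were divided. The deposited values use all exon bases of a gene, which exceed the longest annotated transcript by different amounts, with 8483 against 4627 nucleotides for *Mxd4* and 2717 against 2338 for *Myc*. Divided by the longest transcript, *Mxd4* was above *Myc*, at 20.98 against 18.9 on the same scale, and *Mxd3* was above *Mlx*, at 31.1 against 23.3. Divided by the mean length of the protein-coding transcripts, *Mxd4* had 38.6 and *Myc* 26.0. *Mxd1*, *Max* and *Mxi1* were the upper 3 in that order, and *Mnt*, *Mycl* and *Mycn* the lower 3, under these 3 lengths.

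**Figure D3:**
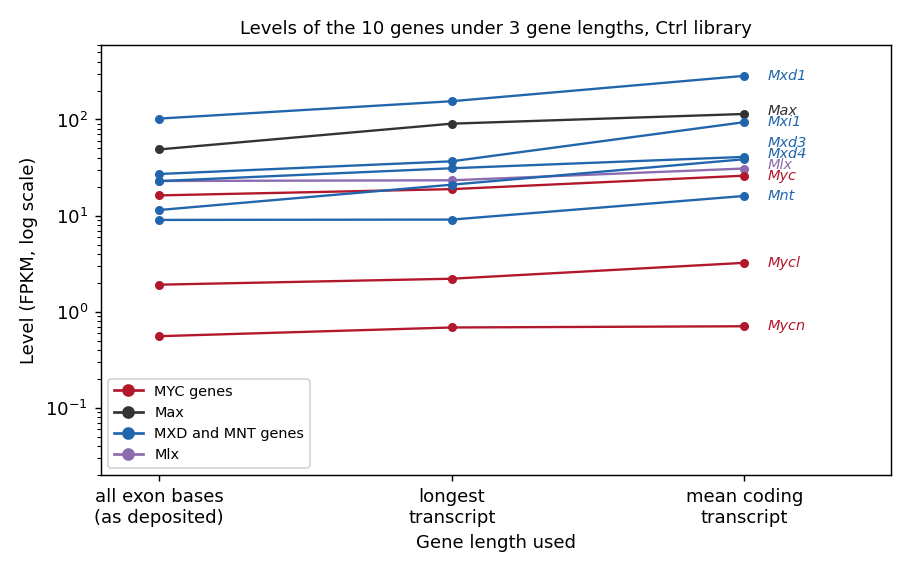
Level in the unit of FPKM, on a log axis, for the 10 genes in the Ctrl library with 3 choices of gene length: all exon bases as in the deposited values, the longest transcript, and the mean of the protein-coding transcripts. The lines of *Mxd4* and *Myc* cross between the first and the second length, while *Mxd1* stays at the top, from 102 to 284, and *Mycn* at the bottom, from 0.558 to 0.707.

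For 4 of the 10 genes some exon bases are shared with a gene on the other strand, and the strand setting of the counting is not given in the sources used here. *Mxd3* shares 105 bases with *Prelid1*, which had 75.1 FPKM, and *Mlx* shares 385 bases with *Psmc3ip*, which had 6.55 FPKM. The partners of *Mxd4* and *Mxi1*, the genes *Gm42846* and *Gm10197*, are listed at 0. Fragments from these stretches cannot be given to a strand without that setting.

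The mRNAs of proteins that work with the network were read next. Of 10 genes for coactivators and partners of MYC, 10 were detected, with a median of 18.7 FPKM, from 6.72 FPKM for *Trrap*, a scaffold of histone acetyltransferase complexes, to 27.7 FPKM for *Wdr5*, which links MYC to chromatin. Of 9 genes for the SIN3 and histone deacetylase complex that the MXD proteins recruit, 9 were detected, with a median of 18.8 FPKM. They ran from 11.8 FPKM for *Sin3b*, the gene of a SIN3 scaffold, to 48.7 FPKM for *Rbbp7*, the gene of a histone-binding subunit. Of 10 genes that act on the stability of the MYC protein, 10 were detected, with a median of 10.9 FPKM. The lowest was *Usp28*, the gene of a deubiquitinase that protects MYC, at 2.15 FPKM, and the highest *Ppp2r5a*, the gene of a subunit of the PP2A phosphatase, at 44.6 FPKM. The network's own repressor *Mxd1* was above every gene of these lists.

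Genes known as targets of MYC were then read from lists drawn up from background knowledge. Of 20 genes known to be activated by MYC, 19 were detected, with a median of 30.2 FPKM, and 13 of the 20 were above *Myc* itself. *Odc1*, the gene of ornithine decarboxylase, the first enzyme of polyamine synthesis, was the highest at 185 FPKM (interval, 181 to 188). *Tert*, the gene of the telomerase reverse transcriptase, was the lowest at 0.243 FPKM from 22 fragments. Of 7 genes known to be repressed by MYC, 6 were detected, with a median of 7.13 FPKM, from 0.273 FPKM for *Cdkn2b*, the gene of the CDK inhibitor p15, to 78.8 FPKM for *Gadd45a*. *Gadd45g*, the gene of the study, had 19.3 FPKM (interval, 17.4 to 21.4), and the deposited level of *Myc* was 0.839 of it. The direction of this ratio rests on the gene length. The deposited values use 1173 exon bases for *Gadd45g* and 2717 for *Myc*. With the longest transcripts, 1071 and 2338 nucleotides, *Gadd45g* would still be above *Myc*. With the mean coding transcripts, 1071 and 1694.5 nucleotides, *Myc* would be above *Gadd45g*. Many genes of the activated list are also highly expressed in cells of all kinds, and a level in 1 library does not measure the activity of MYC on them.

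**Figure D4:**
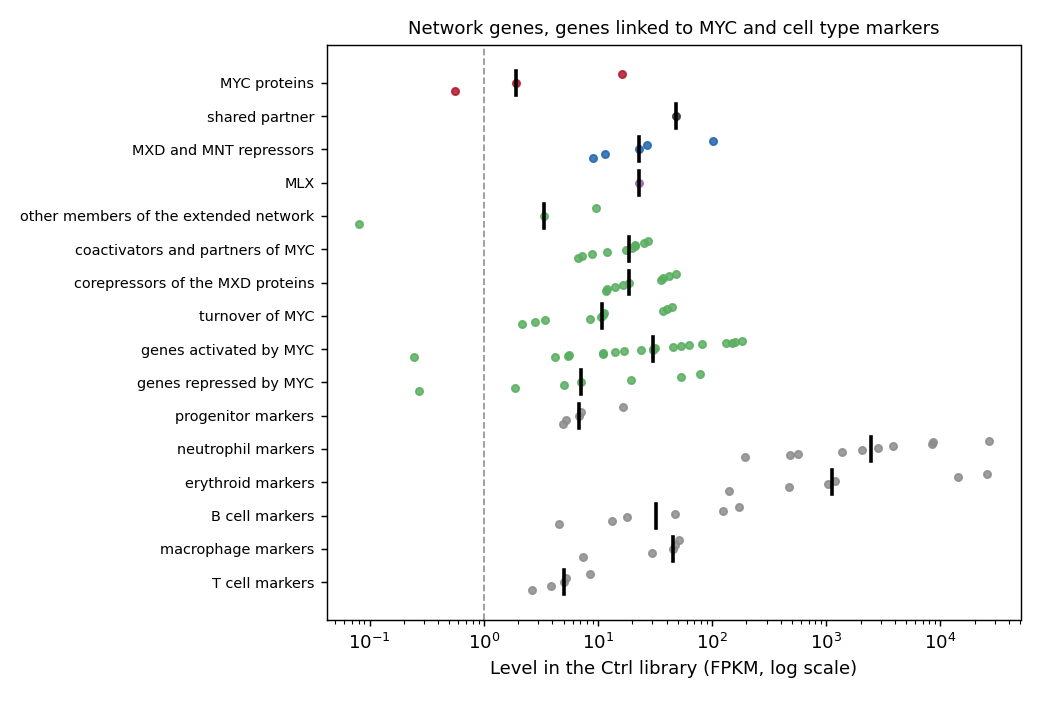
Level in FPKM, on a log axis, of each gene (points) of the network, of lists of genes linked to MYC, and of cell type markers in the Ctrl library, with a black bar at the median of each list and a dashed line at 1 FPKM. The MYC genes have a median of 1.91 FPKM and the MXD and MNT genes of 22.9 FPKM, while the neutrophil markers have a median of 2450 FPKM and the progenitor markers of 6.82 FPKM.

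The network levels belong to a library with much RNA typical of mature blood cells. The labels nevertheless name a sort of c-kit+ cells without lineage markers. All 5 progenitor markers read here were detected, with a median of 6.82 FPKM, and together they made up 0.00946% of the summed FPKM. *Kit* had 7.17 FPKM, *Myb* was the highest, and *Flt3*, the gene of a receptor tyrosine kinase of early progenitors, the lowest at 4.90 FPKM. All 10 neutrophil markers were detected, from 194 FPKM for *Ly6g* to 26677 FPKM for *S100a9*, and together they made up 12.9% of the summed FPKM. All 6 erythroid markers were detected, from 141 FPKM for *Klf1* to 25466 FPKM for *Hba-a1*, and together they made up 9.93% of the summed FPKM. Summed FPKM gives much weight to short genes such as *S100a9*, so the shares in fragments are smaller. Of 17113323 rounded fragments, the neutrophil markers had 772850, the erythroid markers 641904 and the progenitor markers 4990. Each of the 16 neutrophil and erythroid markers was above *Mxd1* in the deposited values. With the longest transcript as gene length *Mxd1* had 155 and was above *Klf1*, whose length is 1530 nucleotides under each choice. The 6 B cell markers ran from 4.53 to 173 FPKM, the 5 macrophage markers from 7.37 to 51.5 FPKM and the 5 T cell markers from 2.62 to 8.55 FPKM, and no gene of these lists was at 0. The part of these cells in the level of *Mxd1*, or of any other network gene, was not tested. In a bulk library, fewer cells of a type and less RNA per cell cannot be told apart.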

How the data were processed

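The authors prepared total RNA of sorted c-kit+ BM cells of Ctrl mice and sequenced it on an Illumina HiSeq platform. The submitters' processing notes name HISAT2 2.0.5, featureCounts 1.5.0-p3 and mm10. The annotation release, the strand setting and the number of mice are not given in the sources used here. The deposited values are FPKM, made by the authors, 1 for each of 54532 Ensembl genes. A few genes with many fragments lower the FPKM of all others by a common factor.

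Gene symbols, exon lengths and coordinates came from GENCODE M21 (GRCm38, the assembly of mm10), in which 54495 identifiers were found. FPKM times exon length was a whole multiple of a common step, within 0.01, for 96.4% of 21313 genes above 0. The rounded multiples were read as fragments. This recovery was tested on simulated whole counts with the library total set to their sum. That tests the computation and not whether the deposited values were made this way. Wilson intervals (95%) were taken on a total of 15899824 fragments, those of genes with a whole multiple, and ratios were given exact binomial intervals. With 1 library no test was run.

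The text names the 10 members, the highest and lowest gene of each list, the relatives *Mga*, *Mlxip* and *Mlxipl*, and *Gadd45g*. *Kit*, *Myb* beside *Myc*, and the genes overlapping members were added after the values were seen. Some list genes are not reported here. Members and lists were chosen with earlier results of these data known, and the E-box search was added after the values were seen. The alternatives changed the detection minimum, the gene length, the genes in the total and the unit. Computations ran in Python 3.11.15 (scipy 1.17.1, pandas 2.3.3, numpy 2.4.6), and plots in matplotlib 3.10.9.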

Additional observations from a re-analysis of the deposited data

How the results depend on the processing

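No paired analysis was possible because only 1 library, without a second group, was analysed. The median of the 10 genes, 19.5 FPKM, was 22.1 with the longest transcript as gene length, 34.7 with the mean coding transcript, 21.3 without the 10 most abundant genes in the total and 45.6 as TPM. Leaving out mitochondrial genes moved it to 19.9, by a fixed factor of 1.02. The value 19.9 lies between the means of the interval bounds of the middle genes, *Myc* and *Mxd3*. The last 3 changes multiply every gene alike. The summed MXD and MNT levels over those of the MYC genes, 9.23, gave 11.6 with the longest transcript, 15.8 with the mean coding transcript and 20.5 in fragments not divided by length. *Max* over its partners, 0.255, gave 0.330, 0.227 and 0.152 under the same choices. *Mxd1* over *Myc*, 6.29, gave 8.21, 10.9 and 16.4, and *Myc* over *Max*, 0.332, gave 0.209, 0.228 and 0.251. None of these ratios crossed 1. Other ratios did, such as that of *Myc* to *Mxd4*, 1.42, which gave 0.899, 0.675 and 0.454 under the same choices. The number of detected members was 9, 10 at 0.1 FPKM, 7 at 10 FPKM and 9 without the 10 most abundant genes. Of 50 alternative values of single members, 34 left the counting interval, and for *Mxi1* its rounded multiple was used. All 50 were higher, a direction fixed in advance. The other lengths are shorter, the totals without some genes are smaller, and the TPM factor was 2.33. Under a common factor, whether a value left its interval rests on the number of fragments of the gene. No list held a gene at 0, so leaving such genes out changed no median. Depth limits *Mycn*, with 29 fragments.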

Other observations

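Other factors that bind E-boxes were read beside the network, from a list of 9 genes, of which 9 were detected, with a median of 11.5 FPKM. *Usf2*, the gene of a broadly expressed upstream stimulatory factor, was the highest at 36.3 FPKM (95% Wilson interval, 34.5 to 38.1), and *Mitf*, the gene of the melanocyte and mast cell factor, the lowest at 1.05 FPKM. *Mxd1* and *Max* were above *Usf2*, and *Myc* was above 6 of the 9 in the deposited values. The count of 6 rests on the gene length. *Tfeb* has 5669 exon bases, against 2342 nucleotides in its longest transcript. With the longest transcripts *Tfeb* would be above *Myc*, and with the mean coding transcripts *Tfeb* and *Tfe3* would be. No window of the 7 genes of this list with a RefSeq promoter held CACGTG. Of 3 genes regulated by MLX with its partners, *Txnip*, which restrains glucose uptake, had 160 FPKM (interval, 156 to 163). This was above *Mxd1* in the deposited values, though it would not be with the mean coding transcripts as gene length. *Pklr*, the gene of the pyruvate kinase of liver and red cells, had 18.1 FPKM and *Arrdc4*, a relative of *Txnip*, 5.93 FPKM.

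CACGTG was also searched for in the RefSeq windows of the other lists, where 8.09% of all genes and 12.2% of the detected protein-coding genes held it. It was in the windows of 5 of the 15 MYC-activated genes that had one, which are *Cdk4*, *Eif4e*, *Hspd1*, *Ldha* and *Nme1*. Of the lists other than these and the E-box factors, 6 held it in 1 gene each, which were *Gadd45g* among 6 MYC-repressed genes, *Kat5* among 9 coactivators, *Rbbp4* among 8 corepressors, *Mlxipl* among 3 further network genes, *Arrdc4* among 3 genes regulated by MLX with its partners and *Flt3* among 5 progenitor markers. It was in no window of the 9 turnover genes or of the neutrophil, erythroid, B cell, macrophage and T cell markers. The lists are short, so that 1 gene is a large share of each, and no binding was measured.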
